A study of Homo sapiens with 16 samples.

Results

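Regulators of G protein signalling (RGS) were followed through 9 genes, RGS2, RGS3, RGS4, RGS5, RGS10, RGS12, RGS14, RGS16 and RGS19, out of 30982 gene names on the array. The members were chosen by gene symbol, and they were brought together because RGS16 was higher under both enzyme digests in these same arrays. The digest values of RGS16 and of the other members are therefore given as a description, without a p-value. Counts of members that passed for the digests under other processing come near the end, and nothing is read from them. All probes of the 9 genes were used, 17 of 41000, and the RefSeq accession of each of the 17 still belongs to the same gene symbol. No threshold on the values separated members from other genes. As a comparison, 13 further genes with RGS in their names, RGS9BP and RGSL1 among them, were read on 14 probes.

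RGS proteins end signals from G protein-coupled receptors. Receptors load G alpha subunits with GTP, and the RGS domain speeds the hydrolysis of that GTP, so that alpha and beta-gamma subunits reunite and signalling to effectors such as adenylyl cyclase and phospholipase C beta stops. Several family members, RGS2 and RGS16 among them, are known as inducible genes, so that a cell under stimulation can adjust the length of its own G protein signals.

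Undifferentiated cells of Caco-2, a human colon carcinoma epithelial line, were kept for 6 h in medium (MED-CTL) or in medium with a stimulant. PT-G is gliadin, the wheat protein behind coeliac disease, after digestion with pepsin and trypsin. PT is the blank digest, which holds both heat-inactivated enzymes but no substrate, and p31-43 is a synthetic gliadin peptide given at 150 µg/ml. All cells, MED-CTL included, shared low-serum medium and were harvested with trypsin-EDTA, and the 4 experiments used a line 1 to 2 passages apart. Each condition had 4 arrays, 16 in all, with 1 array of each condition in each of 4 runs. The arrays lay on 5 slides. PT of run 3 and p31-43 of run 4 shared a slide of their own, with median intensities of 410 and 380.5. Runs 1 and 2 are called earlier and runs 3 and 4 later.

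Values are log2 intensities of 1-colour arrays after quantile normalization, where 1 unit is a doubling. The arrays had median intensities between 153 and 410 over a local background of 48 to 65, and 27660 to 33947 spots well above background. Of the 17 RGS probes, 10 were well above background on all 16 arrays. All 13 intestinal epithelial marker genes on the array, villin and the keratins among them, were well above background on all arrays. PTPRC of leukocytes, COL1A2 of fibroblasts, and CDH5 and TEK of endothelium were not well above background on any array. Other markers of these cells were well above background on all 16 arrays, namely CD3E, CD14, CD68 and ITGAM of leukocytes, COL1A1, COL3A1, LUM, PDGFRB and ACTA2 of fibroblasts or pericytes, and PECAM1 and VWF of endothelium. Of the fibroblast or pericyte markers, PDGFRB averaged 8.56 in MED-CTL, 8.91 with PT and 9.06 with PT-G on the log2 scale. In the same order COL3A1 averaged 8.67, 8.15 and 8.22, and LUM 10.16, 10.10 and 10.00. COL1A1 averaged 8.35, 8.34 and 8.39, and ACTA2 7.13, 7.54 and 7.03. The part of other cell types in the results was not tested. The summed intensity of the 5 endothelial markers lay between 534 and 781 in MED-CTL and between 569 and 775 in PT-G.

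RGS16 and RGS2 are the members on which the results turn, and their promoters are shown for that reason. Each line gives the 250 bases before the gene's start on the gene's own strand, from RefSeq GRCh38.p14, at chr1:182604390-182604639 (minus strand) for RGS16 and chr1:192808789-192809038 (plus strand) for RGS2. Capitals mark a match to CCAAT, to the GC box GGGCGG or to TGACG, on either strand.

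RGS16: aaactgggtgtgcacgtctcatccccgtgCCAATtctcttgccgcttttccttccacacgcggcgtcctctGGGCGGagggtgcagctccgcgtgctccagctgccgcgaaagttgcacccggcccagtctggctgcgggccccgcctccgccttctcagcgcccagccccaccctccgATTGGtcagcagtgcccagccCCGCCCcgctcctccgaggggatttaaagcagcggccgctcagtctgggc
RGS2: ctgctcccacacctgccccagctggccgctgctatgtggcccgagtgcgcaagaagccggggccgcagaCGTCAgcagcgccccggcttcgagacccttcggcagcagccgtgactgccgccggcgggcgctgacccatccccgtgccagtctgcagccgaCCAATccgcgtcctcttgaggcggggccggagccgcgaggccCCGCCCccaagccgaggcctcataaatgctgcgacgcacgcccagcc

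The 2 windows hold 68.4% and 72.8% G and C, where the median over 35116 promoters of the same length was 58.0%, and 22 and 28 CG pairs, where the median was 11. RGS2 has 1 match to TGACG, the core of the cAMP response element, 181 to 177 bases before the start, a motif found in 21.2% of all promoters. CCAAT matched at 2 places in RGS16 and 1 in RGS2 (32.0% of all promoters), and the GC box likewise at 2 and 1 (42.6%). CCAAT and the GC box were added after the sequences had been read. The complete cAMP response element TGACGTCA (1.65% of promoters), the AP-1 site TGANTCA (6.57%), the EGR sites GCGTGGGCG (0.720%) and GCGGGGGCG (4.72%), the TATA box TATAAA (10.7%), the CArG box (1.16%) and the NF-kB site (9.96%), searched on both strands, had no match in either window. The TGACG search also counts each complete cAMP response element. Both genes lie on chromosome 1, where RGS16 lies next to RGS8 and RGS2 next to RGS13.

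RGS16, which acts on Gi and Gq alpha subunits, was higher under both digests and overlapped with the control under p31-43. The brighter of its probes (A_23_P320578) read 10.16, 10.58, 10.26 and 9.81 in MED-CTL in runs 1 to 4. It read 11.52, 11.92, 11.34 and 11.49 with PT, and 11.41, 11.96, 11.57 and 11.61 with PT-G. With p31-43 it read 10.12, 10.78, 9.74 and 9.94. The 8 arrays of the digests all lay above the 8 others, while MED-CTL and p31-43 overlapped and so did PT and PT-G. The difference from MED-CTL was 1.43 ± 0.22 (SE, n = 4 against 4) with PT-G, or 2.70-fold, and 1.37 ± 0.22 with PT, or 2.58-fold. In these bulk RNA samples, more cells with the transcript and more transcript per cell cannot be told apart.

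The other RGS16 probe (A_23_P217845) reads the same transcript nearer its 5′ end, 3247 bases away on the chromosome, and gave the same order. Its log2 intensity was 7.73 ± 0.16 in MED-CTL and 7.72 ± 0.23 with p31-43 (SD, n = 4), against 8.74 to 9.37 with PT and 8.67 to 9.27 with PT-G. PT-G differed from MED-CTL by 1.21 ± 0.16 (SE), or 2.31-fold, and PT by 1.27 ± 0.16, or 2.41-fold. Over the 16 arrays the readings of these 2 probes had a Pearson r of 0.95, which became 0.99 after the mean of each run was subtracted. The arrays share conditions and runs, so these r are descriptive.

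RGS2, which acts mainly on Gq alpha and dampens calcium signalling, had the same pattern on its 1 probe (A_23_P114947). The log2 intensity was 12.40, 12.68, 12.34 and 11.43 in MED-CTL in runs 1 to 4, and 12.30, 12.83, 11.39 and 11.79 with p31-43. With PT it was 13.48, 13.62, 13.09 and 13.22, and with PT-G 13.48, 13.69, 13.37 and 13.29. All 8 digest arrays again lay above the 8 others, and run 4 of MED-CTL was the low array of its group. The difference from MED-CTL was 1.25 ± 0.29 (SE) with PT-G, or 2.37-fold, and 1.14 ± 0.29 with PT, or 2.21-fold. Without that low MED-CTL array (replicate 4) the differences were 0.98 and 0.88.

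**Figure D1:**
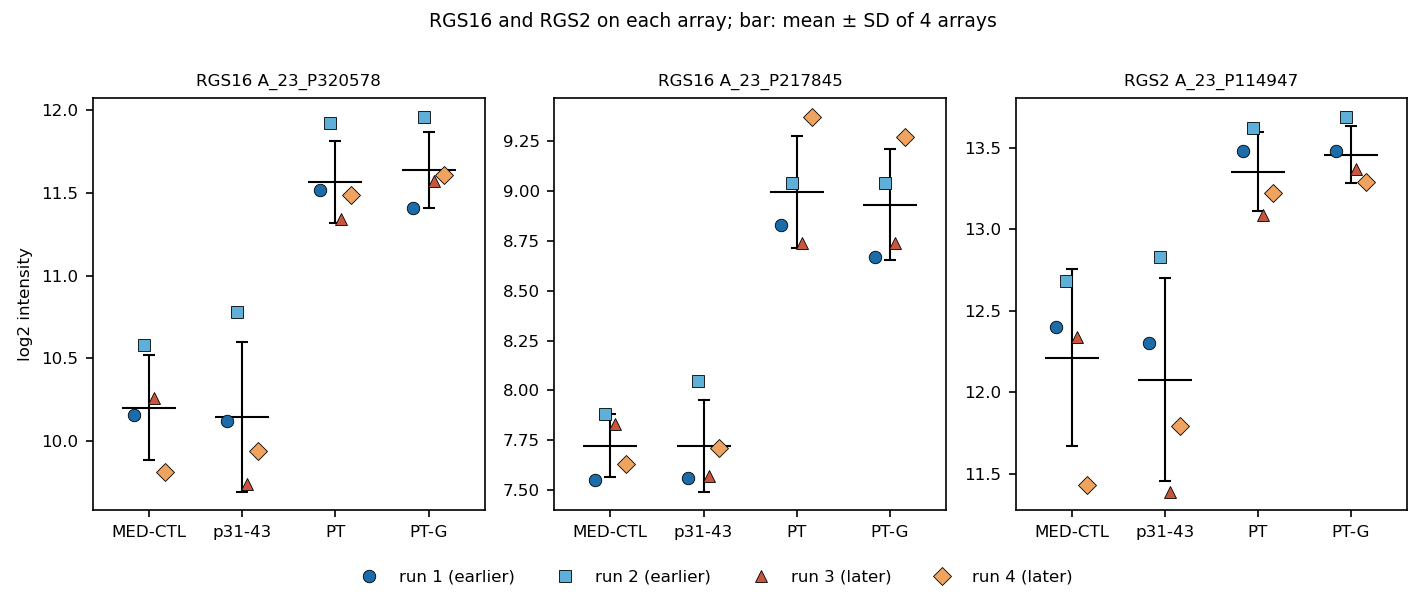
Log2 intensity (vertical axis) of both RGS16 probes and the RGS2 probe on each of the 16 arrays, by condition (horizontal axis), with symbols for the runs and a bar for the mean ± SD of 4 arrays. The PT and PT-G arrays of all 3 probes lie above every MED-CTL and p31-43 array.

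Among all 40982 probes tested, the difference of PT-G from MED-CTL ranked 39th and 74th from the top for the RGS16 probes and 63rd for RGS2. For PT the ranks were 58th, 75th and 114th. The PT-G and MED-CTL arrays did not overlap, with PT-G higher, for 3 of the 17 RGS probes, where 2.01% of all probes had that pattern. For PT it was 4 of 17, where the share over all probes was 2.36%, and the additional probe was RGS10. Nothing is read from these counts, because RGS16 was selected on them. Both digests were compared with the same MED-CTL arrays.

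Set against the MED-CTL array of the same run, RGS16 and RGS2 were higher under the digests in 4 of 4 runs. The brighter RGS16 probe exceeded the control of its run by 1.25, 1.38, 1.31 and 1.80 with PT-G and by 1.36, 1.34, 1.08 and 1.68 with PT. RGS2 exceeded it by 1.08, 1.01, 1.03 and 1.86 with PT-G and by 1.08, 0.94, 0.75 and 1.79 with PT. Run 4, where the MED-CTL array was lowest for both genes, had the largest of these differences. Under p31-43 the within-run difference of RGS16 was -0.04, 0.20, -0.52 and 0.12, and that of RGS2 was -0.10, 0.16, -0.95 and 0.36, below the control in 2 runs and above it in 2 for each gene.

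**Figure D2:**
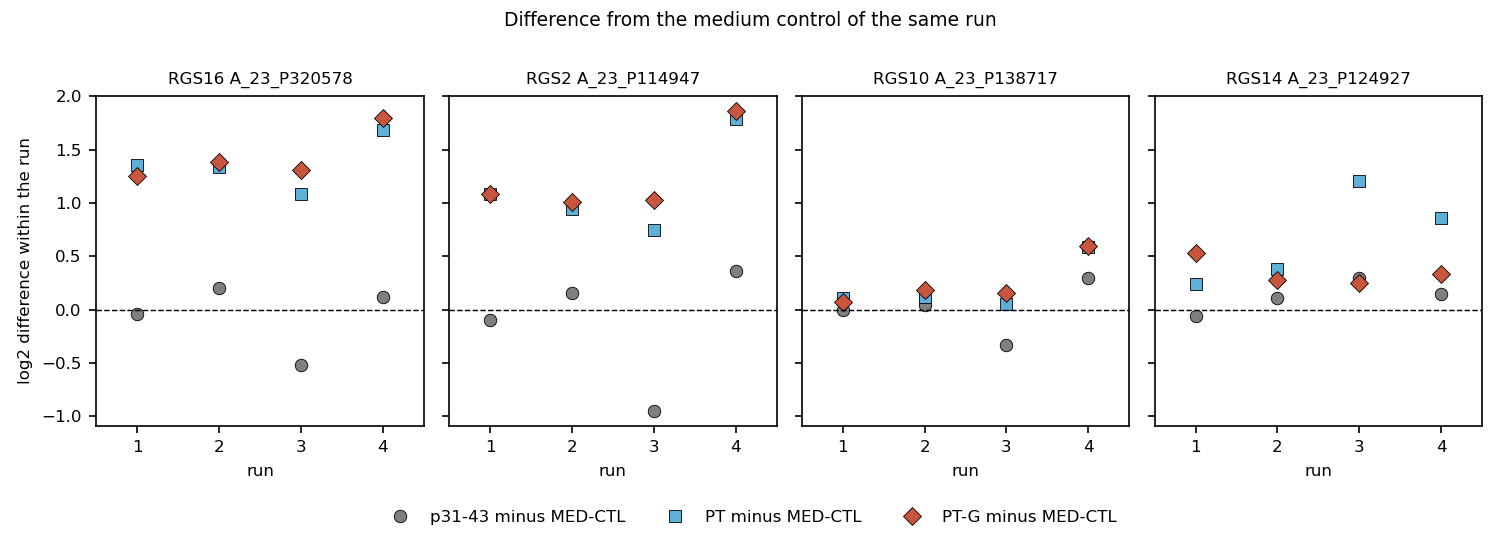
Log2 difference of each stimulated array from the MED-CTL array of the same run (vertical axis) by run (horizontal axis) for RGS16, RGS2, RGS10 and RGS14, with 1 symbol per stimulant. RGS16 and RGS2 are above 0 in all runs with PT and PT-G and on both sides of 0 with p31-43, and RGS10 and RGS14 are above 0 in all runs with PT and PT-G.

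The choice of the members did not use p31-43. The peptide was compared with MED-CTL by limma in the model of all 4 conditions, which did not pair arrays by run. None of the 17 RGS probes had a nominal p under 0.01, where 0.388% of all probes did, and none had a p under 0.05. The smallest p was 0.174, for the dim RGS5 probe A_23_P51518, and the adjusted p of every RGS probe was 1.00. RGS16 differed by -0.06 ± 0.22 (SE, limma, 95% interval of the fold 0.696 to 1.32) on the brighter probe and by 0.00 ± 0.16 on the other (0.782 to 1.28). RGS2 differed by -0.13 ± 0.29, with an interval of the fold from 0.590 to 1.40. The groups overlapped for all 17 probes, where they were apart for 1.39% of all probes. The differences of the 17 probes ran from -0.13 to 0.31 with a median of 0.12, against 0.00 over all probes.

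PT-G against PT asks what gliadin added to the blank digest, and it was tested in the same model. No RGS probe had a nominal p under 0.01 or under 0.05, where 0.0903% of all probes had one under 0.01, and all adjusted p were 1.00. PT-G exceeded PT by 0.07 ± 0.22 (SE, limma, 95% interval of the fold 0.760 to 1.45) on the brighter RGS16 probe. On the other probe the difference was -0.06 ± 0.16 (fold 0.749 to 1.22), and for RGS2 it was 0.10 ± 0.29 (fold 0.697 to 1.66). These intervals leave room for a gliadin contribution of up to 1.45-fold, 1.22-fold and 1.66-fold. The model did not pair the arrays by run, so the intervals include the spread between runs. Within runs, PT-G minus PT on these probes had an SD over the 4 runs of 0.14, 0.08 and 0.12. The 2 groups overlapped for all 17 probes, where they were apart for 0.632% of all probes, and the median difference of the 17 was -0.02, against 0.01 over all probes.

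**Figure D3:**
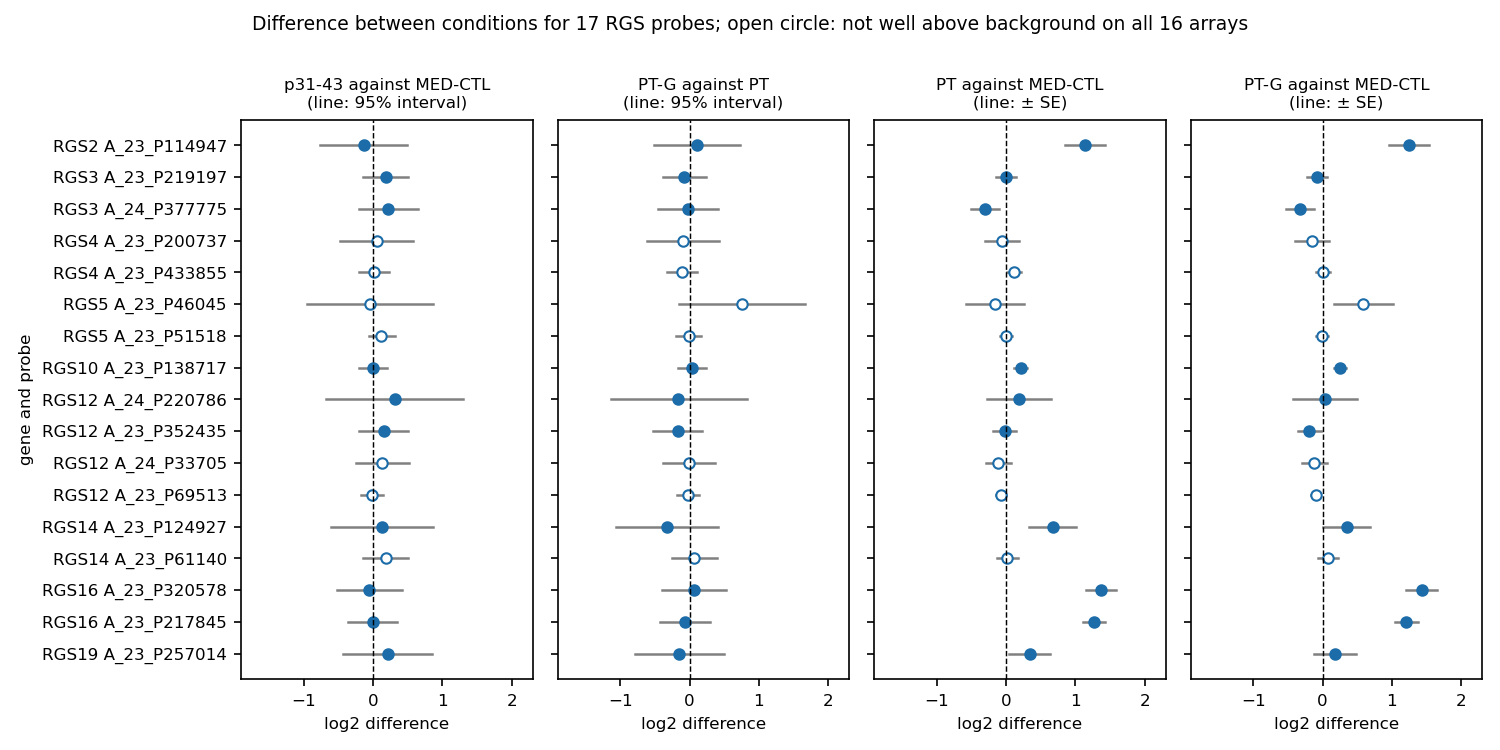
Log2 difference (horizontal axis) of the 17 RGS probes (vertical axis) in 4 comparisons, with the 95% interval of the limma fit for p31-43 against MED-CTL and PT-G against PT and ± SE for the digests against MED-CTL. In the last 2 panels both RGS16 probes and RGS2 lie between 1.14 and 1.43, and in the first 2 panels every interval includes 0.

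RGS10 is a member with little beyond the RGS domain, and RGS14 binds Gi alpha through its RGS domain and through a GoLoco motif. RGS10 and the brighter RGS14 probe were higher than the control of their run under both digests in 4 of 4 runs, with smaller mean differences than RGS16 and RGS2. The share of all probes with 4 of 4 runs in 1 direction was not computed, so nothing is read from such counts. Under p31-43 the RGS12 probe A_23_P352435 was also higher in 4 of 4 runs. So was the RGS3 probe A_23_P219197, although in run 2 both arrays read 10.16 to the digits given. RGS10 (A_23_P138717) read 13.69, 13.69, 13.77 and 13.35 in MED-CTL, 13.80, 13.81, 13.82 and 13.94 with PT, and 13.76, 13.87, 13.93 and 13.95 with PT-G. The PT arrays lay just above the MED-CTL arrays, and 1 PT-G array lay below the highest MED-CTL array. The differences were 0.25 ± 0.09 (SE) for PT-G and 0.21 ± 0.09 for PT, and without the low MED-CTL array of run 4 they were 0.16 and 0.12.

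The brighter RGS14 probe (A_23_P124927) read 9.85, 10.09, 8.74 and 9.51 in MED-CTL and 10.09, 10.47, 9.94 and 10.37 with PT. With PT-G it read 10.38, 10.36, 8.99 and 9.84. The groups overlapped, and PT exceeded MED-CTL by 0.67 ± 0.34 and PT-G by 0.35 ± 0.34. Without MED-CTL replicate 3 the differences were 0.40 and 0.07, and without PT-G replicate 3 that of PT-G was 0.65. Between the digests, PT-G minus PT was 0.29, -0.10, -0.96 and -0.53 in runs 1 to 4, with a mean of -0.32 ± 0.34 (SE, limma adjusted p = 1.00), or -0.02 without PT-G replicate 3. The dimmer RGS14 probe lies nearer the 5′ end, 3082 bases away on the chromosome. It was well above background on 7 of 16 arrays and differed from MED-CTL by 0.02 with PT and 0.08 with PT-G.

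RGS3, which inhibits Gi and Gq signals, was read by probes that cover different transcripts. The probe of 4 RefSeq transcripts (A_23_P219197) differed from MED-CTL by 0.00 ± 0.15 with PT, -0.08 ± 0.15 with PT-G and 0.18 ± 0.15 with p31-43. The probe of the variant NM_017790 (A_24_P377775), 64442 bases away, read 8.11, 8.05, 7.83 and 7.55 in MED-CTL and 8.40, 7.96, 8.21 and 7.85 with p31-43. It read 7.86, 7.70, 7.61 and 7.18 with PT and 7.77, 7.72, 7.78 and 6.99 with PT-G. This probe was lower than the control of its run in 4 of 4 runs with each digest, although the groups overlapped, with differences of -0.30 ± 0.20 for PT and -0.32 ± 0.20 for PT-G. Without PT replicate 4 the former was -0.16, and without PT-G replicate 4 the latter was -0.13.

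RGS4 and RGS5, known from neurons, heart and the pericytes of vessels, lie next to each other on chromosome 1 and were close to background. RGS4 stayed between 6.23 and 7.30 on its brighter probe (A_23_P200737), and its other probe (A_23_P433855) was well above background on 4 of 16 arrays and on none of MED-CTL. RGS5 lay between 6.38 and 7.17 on 15 arrays of probe A_23_P46045, while PT-G replicate 4 read 9.07. The other RGS5 probe reads the same transcript nearer its 5′ end, 4929 bases away on the chromosome. It read 6.33 on that array, inside its range of 6.33 to 6.66. The difference of PT-G from PT on A_23_P46045 was 0.76 ± 0.42 (SE, limma adjusted p = 1.00) and 0.15 ± 0.16 without that array. Over the 8 fibroblast and pericyte markers the summed intensity lay between 2142 and 3327 in PT-G and between 2210 and 3539 in MED-CTL, and their part in the RGS5 reading was not tested.

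**Figure D4:**
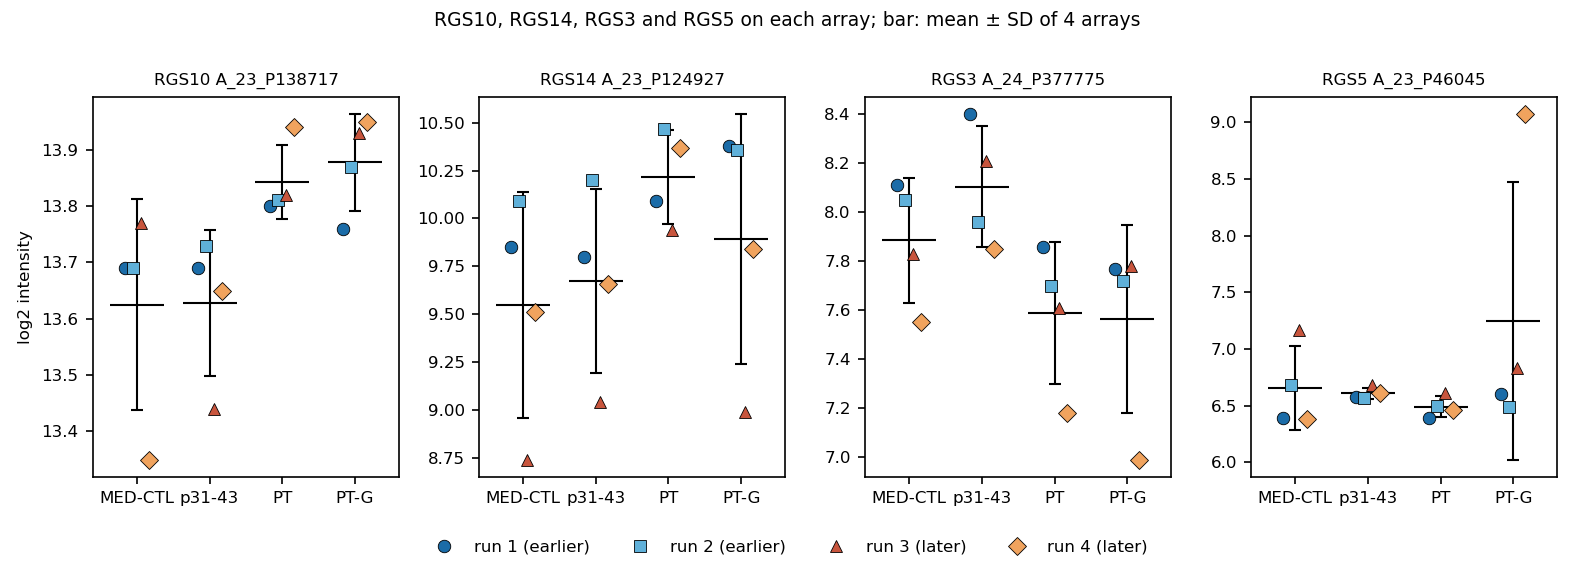
Log2 intensity (vertical axis) of 1 probe each of RGS10, RGS14, RGS3 and RGS5 on the 16 arrays by condition (horizontal axis), with symbols for the runs and a bar for the mean ± SD of 4 arrays. The RGS5 probe reads 9.07 on PT-G replicate 4 and at most 7.17 elsewhere.

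RGS12, a large multidomain member, and RGS19, a small Gi regulator, overlapped between the groups in all 4 comparisons. The 4 RGS12 probes differed from MED-CTL by -0.11 to 0.19 with PT and by -0.19 to 0.03 with PT-G. Probe A_23_P352435 was lower in 4 of 4 runs with PT-G, and A_23_P69513 in 4 of 4 with PT. The RGS12 probe with the widest spread (A_24_P220786) read 6.93 in run 3 of MED-CTL and 8.65 to 9.22 in the other runs. RGS19 (A_23_P257014) differed by 0.34 ± 0.30 with PT, higher in 4 of 4 runs, and by 0.18 ± 0.30 with PT-G, higher in 3 of 4.

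Levels also differed between the runs, which the choice of the members did not use. Of the 17 RGS probes, 5 were lower in the later runs at a nominal p under 0.01 in a limma model of condition and pair of runs, and none was higher, where 11.8% of all probes were lower and 12.4% higher. For RGS19 the 8 earlier arrays lay between 9.44 and 9.87 and the 8 later ones between 8.59 and 9.28, with no overlap and a difference of -0.72 ± 0.09 (SE, limma adjusted p = 6.39e-05). The RGS12 probes A_24_P33705 and A_23_P352435 differed by -0.42 ± 0.06 (adjusted p = 0.000263) and -0.36 ± 0.07 (adjusted p = 0.00167, limma). RGS14 on its brighter probe differed by -0.64 ± 0.17 (adjusted p = 0.0153, limma) and RGS2 by -0.57 ± 0.14 (adjusted p = 0.0104, limma). RGS16 differed by -0.33 ± 0.13 (limma adjusted p = 0.0730) on the brighter probe and by 0.03 ± 0.12 on the other. Each side holds only 2 runs, and these errors treat the 8 arrays of a side as independent. With run as a random block, an alternative chosen after seeing the data, 3 RGS probes were lower, where 6.49% of all probes were. They were RGS19 (limma adjusted p = 0.00357) and the RGS12 probes A_24_P33705 (limma adjusted p = 0.00931) and A_23_P352435 (limma adjusted p = 0.0408). RGS14, at -0.64 ± 0.22 (limma adjusted p = 0.0779), and RGS2, at -0.57 ± 0.22 (limma adjusted p = 0.121), no longer passed. A difference between runs in culture and one in hybridisation cannot be told apart here.

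**Figure D5:**
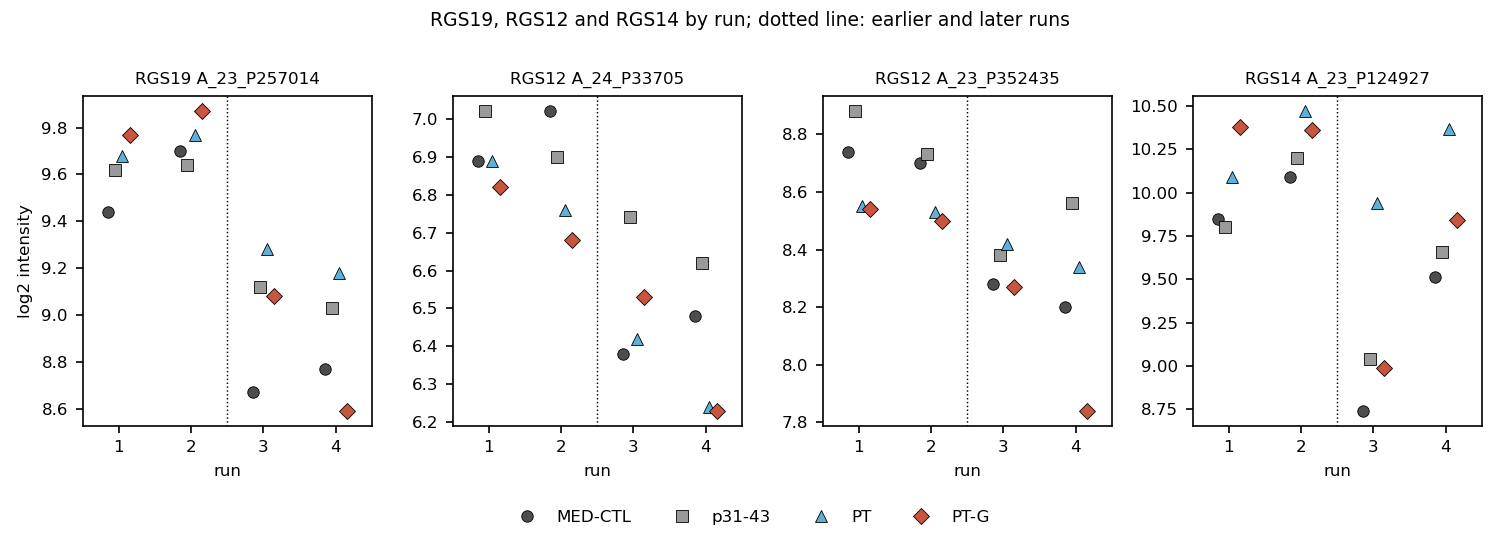
Log2 intensity (vertical axis) by run (horizontal axis) of RGS19, both RGS12 probes that were lower in the later runs, and RGS14, with 1 symbol per condition. For RGS19 every array of runs 1 and 2 lies above every array of runs 3 and 4, whatever the condition.

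The size of the digest effect was also compared between the pairs of runs, as an interaction term in limma. None of the 17 RGS probes had a nominal p under 0.01 or under 0.05 for PT-G, where 0.583% of all probes passed 0.01, and none for PT, where 1.02% did. For the brighter RGS16 probe the PT-G effect was larger in the later runs by 0.24 ± 0.38 (SE, limma adjusted p = 1.00) and the PT effect by 0.03 ± 0.38 (limma adjusted p = 0.998). For RGS2 the values were 0.40 ± 0.39 (limma adjusted p = 1.00) and 0.26 ± 0.39 (limma adjusted p = 0.998). With 2 arrays per condition and pair, the 95% interval for RGS16 under PT-G reached from -0.60 to 1.08.

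The genes whose pattern over the 16 arrays was most like RGS16 were sought among 12087 genes, by Pearson r with its brighter probe. They were EGR4, an early growth response zinc finger (0.972), KIAA1893 (0.968), PALM, the membrane protein paralemmin (0.968), DUSP6, a phosphatase of ERK (0.968), and RGS2 (0.965). With the mean of each run subtracted they were PLK3, a polo-like kinase (0.989), TGFBR2, a TGF-beta receptor (0.989), ERRFI1, a feedback inhibitor of the EGF receptor (0.988), KIAA1893 (0.987) and the pseudokinase TRIB1 (0.986). All arrays share the 4 conditions and the runs, so a gene with a like difference under the digests has a high r.

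For RGS2 the most alike genes were PLK3 (0.973), ZC3H12A, an RNase that degrades inflammatory transcripts (0.967), PALM (0.966), RGS16 (0.965) and MAFF, a small Maf transcription factor (0.964). With the run means subtracted RGS16 came first (0.983), before FOXL2, PLK3, ZC3H12A and LOC90355. Levels of these genes differed from MED-CTL by 0.34 to 3.00 under the digests. EGR4 was the farthest, with 2.99 for PT-G and 3.00 for PT, and DUSP6 differed by 1.59 and 1.38. Under p31-43 the same genes lay between -0.28 and 0.15 of MED-CTL.

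The other genes of the pathway were taken from lists with 89 genes, of which 85 with 128 probes were on the array. Under p31-43, 1 of 128 probes passed a nominal p of 0.01 by limma, where 0.388% of all probes did. It was that of GNG8, a G gamma subunit (-0.43 ± 0.13, SE), and its groups overlapped. No probe on the array passed for p31-43 after adjustment. For PT-G against PT none of the 128 passed by limma, at 0.01, where 0.0903% of all probes did. With PT-G, 2 of the 128 probes were higher and 2 lower, where 1.91% and 1.52% of all probes were, and with PT 1 was higher and 5 lower, where it was 1.80% and 1.84% of all probes. With the replicate number as a block, 8 probes passed for PT-G and 10 for PT, where 7.59% and 8.49% of all probes did. The median difference over the lists was 0.02 with PT-G and 0.00 with PT, against -0.01 over all probes in each.

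None of the 14 probes of the 13 other genes with RGS names passed in any of these 4 comparisons, by limma at a nominal p of 0.01. Only 5 of the 14 were well above background on all 16 arrays, which limits what the dim probes could show. AXIN2, a scaffold of beta-catenin breakdown that carries an RGS domain, passed on 2 of its 3 probes. Probe A_23_P159395 fell from 9.65 ± 0.10 (SD, n = 4) in MED-CTL to 8.73 ± 0.11 with PT (limma adjusted p = 0.00254) and to 8.85 ± 0.17 with PT-G (limma adjusted p = 0.00473). Probe A_23_P148015 fell by 0.86 with PT (limma adjusted p = 0.0364), and its difference with PT-G was -0.69 (limma adjusted p = 0.0976). The dimmer AXIN2 probe (A_24_P298027) overlapped between the groups and did not pass, with differences of -0.26 for PT and -0.38 for PT-G. GNB1L, a protein like G beta, was higher by 0.69 ± 0.17 with PT (adjusted p = 0.0802, limma) and by 0.73 ± 0.17 with PT-G (adjusted p = 0.0610, limma). AKAP10, an anchor of protein kinase A with RGS domains, was lower with PT, with a difference of -0.33 ± 0.10 (adjusted p = 0.169, limma). With PT-G it differed by -0.20 ± 0.10, with overlap. SNX25, a sorting nexin, was higher with PT-G by 0.29 ± 0.09 (adjusted p = 0.198, limma) on its brighter probe. With PT that probe differed by 0.24 ± 0.09, with overlap. The other SNX25 probe overlapped under both digests (0.22 with PT-G, 0.14 with PT). PT-G minus PT was 0.13 ± 0.10 for AKAP10 and 0.04 ± 0.09 for the brighter SNX25 probe. The remaining PT probes under the nominal threshold, of RIC8A and GNG8, overlapped between the groups.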

How the data were processed

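RNA of 16 Caco-2 cultures was measured on 1-colour arrays. The authors deposited scanner output, which gives for every spot its linear intensity (foreground median and mean, local background) and other columns that mark control spots, outliers and signal well above background, written by Feature Extraction 9.5.3.1. They also deposited log2 values, which differ by at most 5.00e-09 from quantile-normalized foreground medians over all spots. Here the log2 foreground median of 43376 non-control spots was quantile-normalized without background correction, after the study's methods, 1774 spots marked as outliers were left out, and spots of a probe were averaged. No spot of the RGS probes was marked. Of 41000 probes, 40982 with at least 3 arrays per condition entered limma 3.58.1 under R 4.3.3 (1 model of 4 conditions, 12 residual and 1.88 prior degrees of freedom), at a nominal p of 0.01 and a Benjamini-Hochberg adjusted p of 0.05 over all probes tested. The test was checked on simulated data with independent arrays, which held no effect of run or slide. The members and lists were chosen with earlier results of these data known. Every probe of a member was reported, with its brightest probe first. Pathway genes were named where p passed and groups did not overlap, and GNG8 and RIC8A were added after their values were seen. The 5 most alike genes came from brightest probes with RefSeq accessions that were well above background on all 16 arrays. Runs were read from the deposited array names. By them MED-CTL replicates 1 and 2 lie in runs 2 and 1, and every other replicate number is its run. Deviations of arrays of the same replicate number correlated between 0.262 and 0.707 for p31-43 with MED-CTL and between 0.395 and 0.857 for PT-G with MED-CTL. They correlated between -0.00542 and 0.411 for PT with MED-CTL and between 0.0492 and 0.695 for PT-G with PT. By run these were 0.538 to 0.707, 0.628 to 0.857, -0.00542 to 0.620 and 0.0492 to 0.695, so the lowest values for p31-43 and PT-G with MED-CTL were higher by run than by number. How much of these correlations comes from the shift between earlier and later runs was not tested. A further fit of later with earlier runs took run as a random block (duplicateCorrelation, consensus correlation 0.298). The 4 cultures per condition came from separate experiments. Probe positions were used only for distances, since their genome build is not given in the sources used here. These distances run along the chromosome, introns included, and not along the transcript.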

Additional observations from a re-analysis of the deposited data

Results flagged for a closer look

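In 3 of the 68 sets of 4 arrays (17 probes in 4 conditions), 1 array stood apart by Dixon's gap-over-range limit at 95%, which chance passes in about 1 of 20 sets. RGS5 probe A_23_P46045 read 9.07 on PT-G replicate 4, against 6.49 to 6.83 on the other PT-G arrays, and the other RGS5 probe did not stand apart there. RGS3 probe A_24_P377775 read 6.99 on PT-G replicate 4, against 7.72 to 7.78. RGS10 read 13.94 on PT replicate 4, against 13.80 to 13.82.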

How the results depend on the processing

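Of 2472 values of single RGS probes under 30 alternatives and 1 more chosen after seeing the data, 2438 kept their call or moved by less than the spread between replicates, 15 moved more without a call, 17 passed p 0.01 that had not before, 2 no longer passed, and none of the called ones changed direction. The differences of the digests from MED-CTL ranged from 1.24 to 1.56 for the brighter RGS16 probe, from 1.09 to 1.60 for the other and from 0.88 to 1.40 for RGS2. For p31-43 with MED-CTL and for PT-G with PT, 0 of 17 RGS probes passed under every alternative. With the replicate block, 4 RGS probes passed for PT-G and 4 for PT, in place of 3 and 3, and with run as a block 5 passed for PT. These counts come from the comparison that chose the members and nothing is read from them. Over all probes the replicate block gave 3110 in place of 1408 for PT-G and 3481 in place of 1491 for PT, and run as a block 4217 for PT. Later against earlier runs gave 8 in place of 5 with background subtracted and each array scaled to its 75th percentile. Under that setting 22.4% of all probes passed, in place of 24.2%. The added probes were higher in the later runs, the RGS4 probes by 0.94 and 1.06 and RGS5 probe A_23_P51518 by 0.29. With run as a random block 3 passed, where RGS2 and RGS14 no longer did, against 13.7% of all probes. For the interaction with PT-G, 1 passed with slide as a block, and 0 to 1 with an array left out (RGS5, without PT-G replicate 3), and for that with PT 1 with run as a block (RGS14).

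The counts of the pathway lists also moved, and so did the shares of all probes. With the replicate block, run, slide and pair of runs as a block, 8, 10, 16 and 7 of the 128 probes passed for PT-G in place of 4. Of all probes 7.59%, 9.16%, 12.2% and 5.85% passed under these blocks, in place of 3.44%. For PT, 10, 11 and 13 passed with the replicate block, run and slide in place of 6, or 3 after the filter on dim probes. The shares of all probes were 8.49%, 10.3%, 10.6% and 4.18%, in place of 3.64%. For PT-G with PT 1 passed in place of 0 with each of the 4 blocks and with array weights, where 0.185% to 0.520% of all probes did. For p31-43 it was 3 with slide as a block, 0 with only the groups compared, and 0 to 2 with an array left out (0 without MED-CTL replicate 1 or 2 or p31-43 replicate 1, 3 or 4, and 2 without MED-CTL replicate 3 or PT replicate 4), in place of 1. Of all probes 3.73% passed for p31-43 with slide as a block, and 0.200% with only the groups compared, in place of 0.388%. With an array left out the share was 0.215% to 0.803%. The cause of these shifts was not tested. With median scaling the median of all probes for PT was -0.11, in place of -0.01. Later against earlier runs could not be fitted with replicate, run, slide or pair as fixed blocks or with only the groups compared, nor the interactions with pairs as a block. Signal near background limits RGS4, RGS5 and the dim probes of RGS12 and RGS14.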
